A study of Rattus norvegicus with 15 samples.

Results

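The aryl hydrocarbon receptor (AhR) is a ligand-activated transcription factor that waits in the cytoplasm bound to HSP90. After binding a ligand such as dioxin it enters the nucleus, pairs with ARNT and binds DNA at xenobiotic response elements, whose core letters are GCGTG. In liver its best known targets are the cytochrome P450 genes Cyp1a1 and Cyp1a2. Cyp1a2 is made by resting hepatocytes, whereas Cyp1a1 is kept low until an inducer arrives.

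The genes described here are 6 classical AhR targets: Cyp1a1, Cyp1a2, Cyp1b1, Ahrr, Tiparp and Aldh3a1. They were measured in liver RNA of female Wistar Crl:WI rats aged 2 to 3 months. The 8 fipronil rats were given fipronil, a phenylpyrazole insecticide, by mouth at 3 mg/kg/day for 14 days, and the 7 vehicle rats were given the methylcellulose and Tween solution without it for the same time. Every liver was hybridised to its own 1-colour Agilent rat array, on 4 slides that each held both groups. The members were found by the gene name printed with each probe, which gave 9 of the 41012 non-control probes: 1 for Cyp1a1, 2 for Cyp1a2, 2 for Cyp1b1, 3 for Tiparp and 1 for Aldh3a1. No probe carried the name or an accession of Ahrr, so the AhR repressor is not analysed here. The probes of 1 gene are numbered from the brightest down. Signals are given as log2 of the background-subtracted intensity minus log2 of the array's 75th percentile, so that 0 means a probe as bright as that percentile and each unit is a doubling.

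Of the 9 probes, 6 were well above background on at least 7 of the 15 arrays and entered the test. The 3 that did not were both Cyp1b1 probes and Tiparp probe 3. The libraries carry the markers of the labelled tissue: all 6 hepatocyte marker genes were detected on every array. In the 9 cell type marker lists 0 probes passed the test. The probes of Alb, Ttr, Tf and Serpina1 were saturated on all 15 arrays, so a change in these hepatocyte markers could hardly be seen. The median differences of the lists ran from -0.31 for hepatocytes to 0.29 for endothelial cells, beside -0.02 for all tested probes. The log2 75th percentile subtracted from every signal averaged 0.31 higher in fipronil rats. A saturated spot cannot rise with a brighter array, so part of the hepatocyte value can come from the subtraction. This part was not tested. The arrays were not equally bright. The 75th percentile was 209.9 ± 25.8 intensity units in fipronil rats and 171.5 ± 33.3 in vehicle rats (SD, n = 8 and 7, exact permutation test of the log2 values, two-sided p = 0.0205). The lowest signal called above background averaged -4.14 on fipronil arrays and -3.78 on vehicle arrays, so a dim probe was more easily called present in fipronil rats. Less RNA per cell and fewer cells of a type cannot be told apart in pieces of whole liver.

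The DNA letters that AhR and ARNT recognise are shown where they occurred in the members' promoter windows found in RefSeq. Windows on build GRCr8, running from 250 bases before to 50 bases after the gene start, were found for 4 of the 6 members, namely Cyp1a2, Cyp1b1, Ahrr and Tiparp. The core GCGTG was searched on both strands, and its matches stand in capitals, as CACGC where they lie on the opposite strand.
Cyp1b1, chr6:21094476-21094496, plus strand: ccgcccctCACGCcccacccc
Cyp1b1, chr6:21094537-21094557, plus strand: gagggatgGCGTGtcgcctct
Ahrr, chr1:30822069-30822114, plus strand: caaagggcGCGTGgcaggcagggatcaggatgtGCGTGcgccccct
Ahrr, chr1:30822154-30822174, plus strand: ggccgctcGCGTGctggggtg
Tiparp, chr2:152063625-152063645, plus strand: gtcaggcgCACGCgcacggga

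The Ahrr window held 3 matches, at 142, 117 and 57 bases before the start, and the Cyp1b1 window held 2, at 81 and 20 bases before it. Tiparp had 1 match, 136 bases before its start. The longer form TNGCGTG, which contains the core, occurred once in the Cyp1b1 window and once in the Ahrr window. In the Cyp1a2 window the core letters did not occur. The core was present in 29.7% of all 33469 promoter windows of the same length and the longer form in 4.89%, so a match is common and is only a description of the letters.

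No measured AhR target passed the test between fipronil and vehicle rats: 0 of the 6 tested probes were higher and 0 were lower in fipronil rats (limma, Benjamini-Hochberg adjusted p under 0.05 over all tested probes). Over all 23258 tested probes 0.821% passed, 0.533% as higher and 0.288% as lower. At an unadjusted p under 0.05, 1 of the 6 passed (Aldh3a1), against 17.2% of all tested probes. The fipronil and vehicle ranges overlapped for all 9 member probes, tested or not; among all tested probes 0.598% had ranges that did not overlap. The same arrays held strongly induced genes. Cyp3a23-3a1, a P450 of the steroid- and drug-metabolising CYP3A family, averaged 7.99 ± 0.17 in fipronil rats and 3.92 ± 0.70 in vehicle rats, 16.9-fold higher. Ugt1a1, the glucuronosyltransferase that conjugates bilirubin, averaged 3.08 ± 0.23 in fipronil rats and 0.84 ± 0.24 in vehicle rats, 4.75-fold higher.

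**Figure D1:**
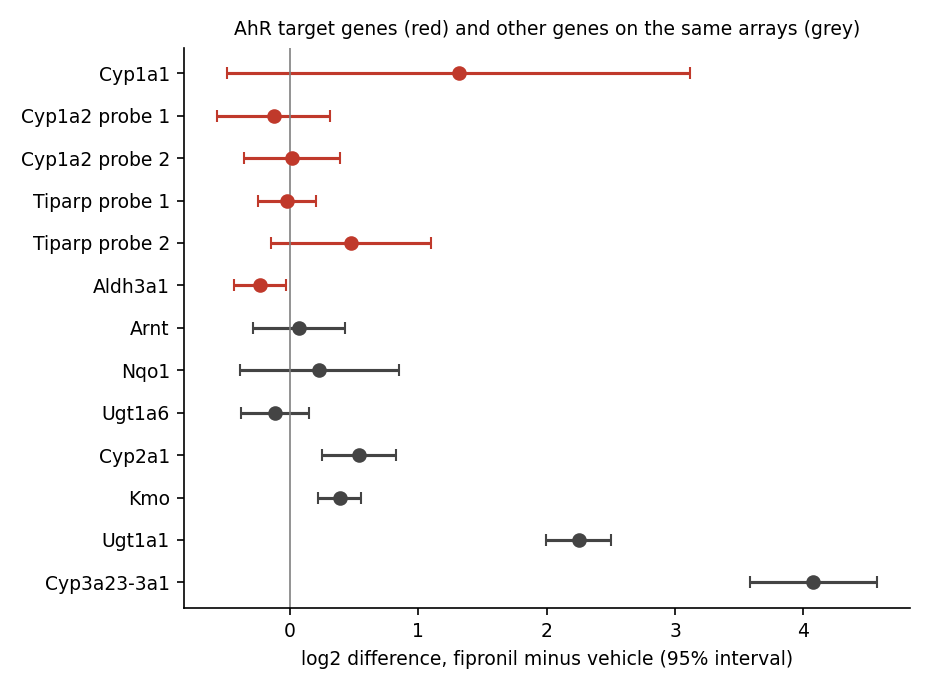
Log2 difference, fipronil minus vehicle, on the horizontal axis for the 6 tested member probes (red) and 7 other genes on the same arrays (grey); points are estimates and bars 95% intervals. The interval of Cyp1a1 is the widest of the members, from -0.49 to 3.12, while Cyp1a2 and Tiparp probe 1 lie close to 0 and Cyp3a23-3a1 and Ugt1a1 lie far to the right.

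Cyp1a1 encodes the P450 that oxidises polycyclic aromatic hydrocarbons and is the most sensitive marker of AhR activation in liver. Its probe lies on chromosome 8 of build rn4, from 61468133 to 61468192, and is printed in 10 spots per array. The signals of the fipronil rats 1 to 8 were -3.38, -0.77, -0.63, -2.44, -3.90, -1.08, -1.24 and -2.55. Those of the vehicle rats 1 to 7 were -5.58, -5.45, -0.30, -5.08, -4.48, -1.53 and -0.77. The highest rat of all was vehicle 3 and the 4 lowest were all vehicle rats, so that the fipronil range lay inside the vehicle range.

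The mean Cyp1a1 signal was -2.0 ± 1.24 in fipronil rats and -3.31 ± 2.34 in vehicle rats (SD, n = 8 and 7). The log2 difference was 1.32 with a standard error of 0.85 (2.49-fold, 95% interval 0.713 to 8.68-fold), which did not pass the test (limma, adjusted p = 0.455). The fold and its interval use signals below background in 4 of the 7 vehicle rats. The detection limit of an array is here the lowest signal called above background on it. A signal over this limit can still be one not called above background. With signals below each array's detection limit raised to that limit, the log2 difference was 0.61 (limma, adjusted p = 0.684). Of the 8 fipronil rats, 6 were above the vehicle mean. Only 95 of all tested probes (0.408%) had a larger difference in size, but the SD within groups, 1.83, was also larger than that of 99.9% of tested probes and includes those dim signals. After normexp background correction with quantile normalisation, which compresses dim signals, the difference was 0.23 on the log2 scale (adjusted p = 0.730). The arrays show neither a change in Cyp1a1 nor its absence.

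The vehicle rats fell into separate levels of Cyp1a1. The probe was well above background in vehicle rats 3, 6 and 7, the lowest at -1.53, and not in vehicle rats 1, 2, 4 and 5, the highest at -4.48. Between these levels lay 4 of the 8 fipronil rats and no vehicle rat. The 10 repeated spots gave similar readings on bright arrays and spread more, relative to their mean, on dim ones. They ran from 152 to 176 units in vehicle rat 3 (mean 159) and from 2.42 to 14.6 units in vehicle rat 5 (mean 7.82). In fipronil rats 10 of the 10 spots were above background on 6 arrays, 9 in rat 1 and 5 in rat 5; in vehicle rats 10 of the 10 were above background in the 3 bright rats, 2 in rat 5 and 0 in the other 3. The mean intensity per array ran from 12.8 to 158 units in fipronil rats and from 3.77 to 159 units in vehicle rats, with an SD over spots of 1.2 to 10.7 units.

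Counted as present or not (at least 5 of the 10 spots well above background), Cyp1a1 was detected in 8 of 8 fipronil rats and 3 of 7 vehicle rats. Fisher's exact test, two-sided, gave p = 0.0256, and 1.0 after adjustment over the 7525 probes detected on some but not all arrays. Of those probes, 3.31% had an unadjusted p under 0.05, 0% passed after adjustment, and 1.29% were detected on all 8 fipronil arrays and on 3 or fewer vehicle arrays. The signal of fipronil rat 5, -3.90, was below the lowest detected signal of 5 of the 7 vehicle arrays. Above the mean detection limit of the vehicle arrays lay 7 of 8 fipronil rats and 3 of 7 vehicle rats. Above the highest of these limits lay 6 of 8 fipronil rats. The part of array brightness in these counts was not tested.

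**Figure D2:**
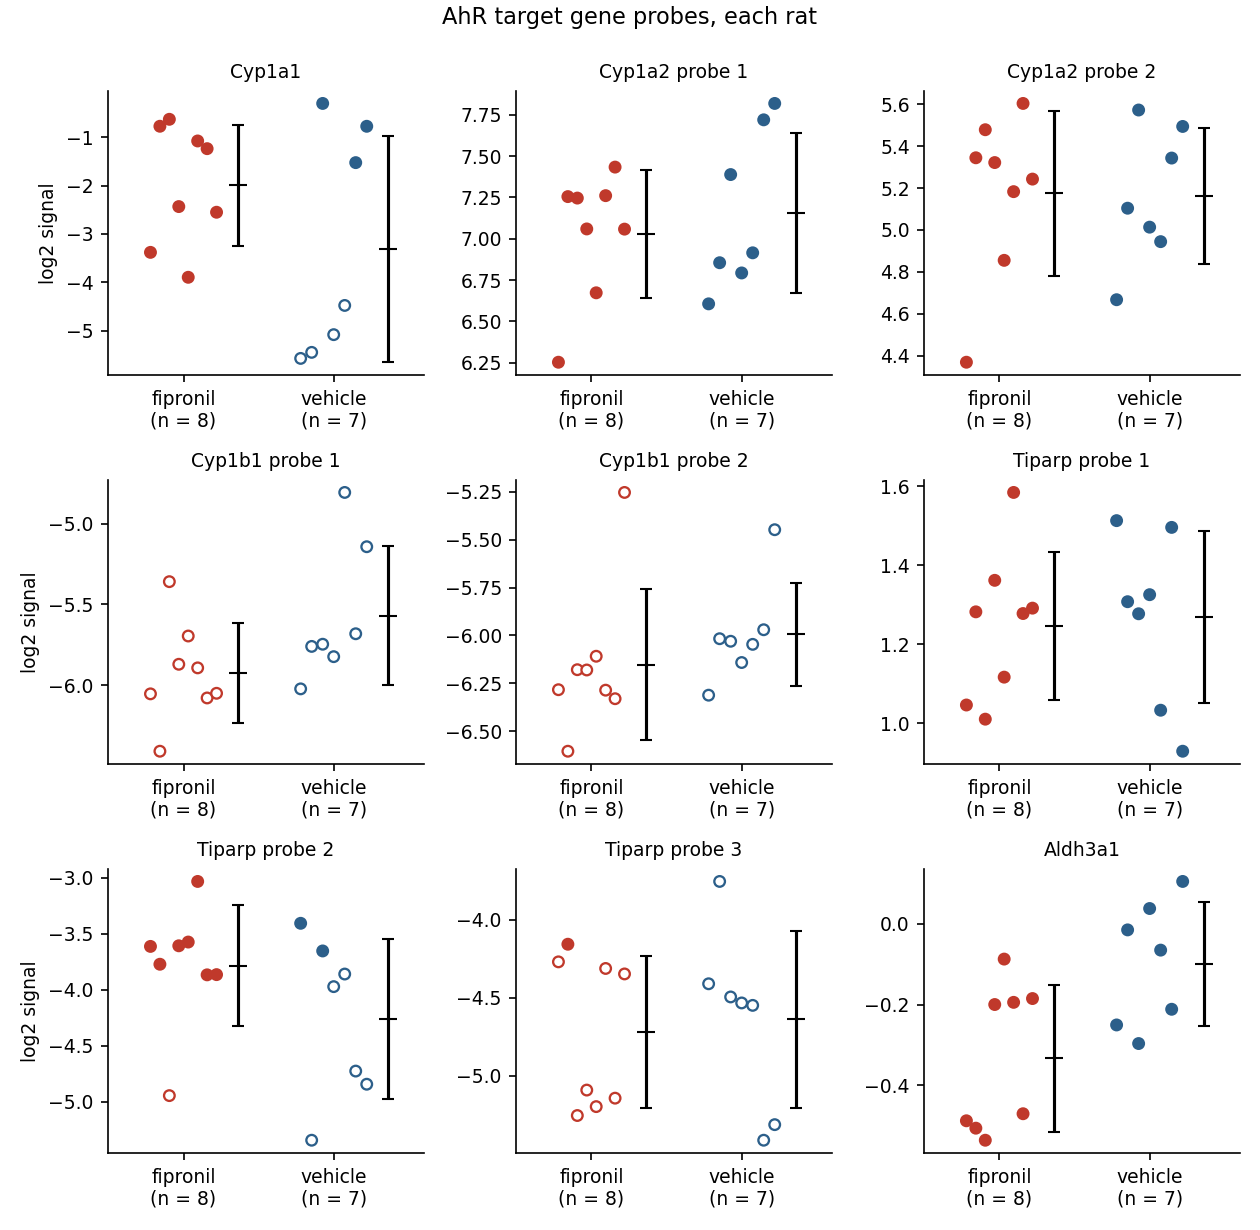
Log2 signal (vertical axis) of each of the 9 member probes in every rat, fipronil left and vehicle right; filled points were well above background, open points were not, and bars are the mean ± SD. Cyp1a1 has open points in 4 vehicle rats only, whereas Cyp1a2 and Tiparp probe 1 are filled and overlap in both groups.

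Cyp1a1 differed from slide to slide. The fipronil minus vehicle difference was 3.44 on slide 1, 1.16 on slide 2, 1.99 on slide 3 and -0.74 on slide 4. Slide 3 held 1 vehicle rat and each other slide 2 rats per group, so no slide was tested alone. On slide 4 both vehicle rats, 6 and 7, had Cyp1a1 above background. The pooled difference was 0.46 without slide 1 (limma, adjusted p = 0.880) and 2.15 without slide 4 (limma, adjusted p = 0.535). Leaving out 1 rat at a time gave differences between 0.94 and 1.82, none past the threshold.

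**Figure D3:**
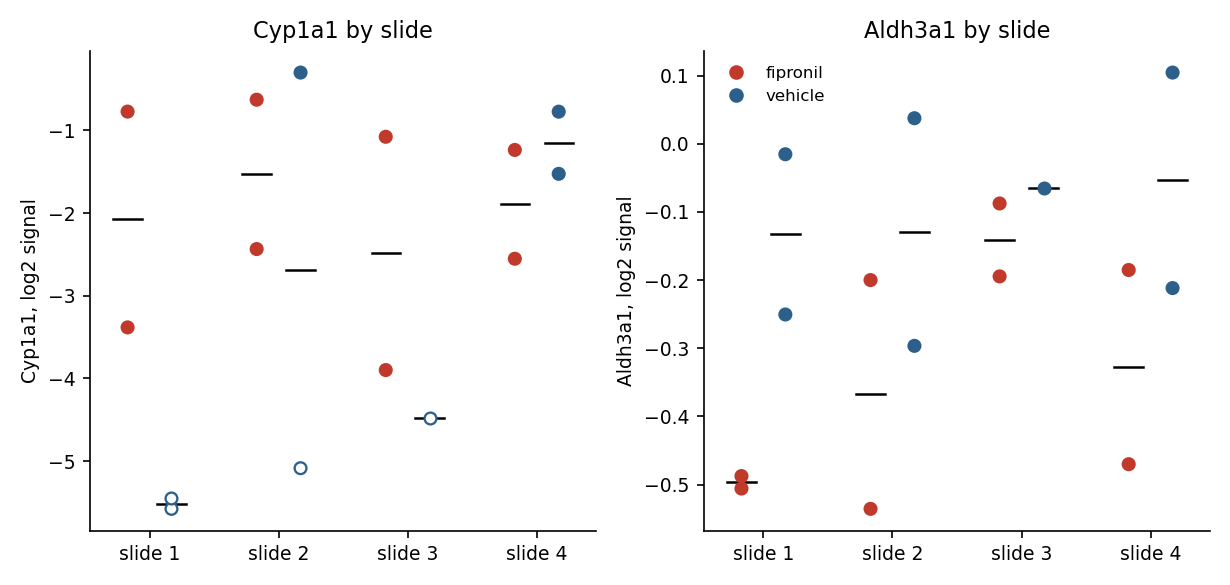
Log2 signal of Cyp1a1 (left) and Aldh3a1 (right) in each rat by slide, with fipronil left of vehicle on each slide; open points were not above background and short lines are group means on that slide. The order of the group means for Cyp1a1 turns round on slide 4, and the Aldh3a1 mean is lower in fipronil rats on each of the 4 slides.

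Cyp1a2, the constitutive hepatic member of the family, which oxidises caffeine and aromatic amines, was well above background in all 15 rats with both probes. Probe 1 lies at chromosome 8 of rn4, 61439236 to 61439295, and probe 2 spans 622 bases of the genome there, 61444103 to 61444724. Probe 1 read 6.25, 7.25, 7.25, 7.06, 6.67, 7.26, 7.43 and 7.06 in fipronil rats 1 to 8. In vehicle rats 1 to 7 it read 6.61, 6.86, 7.39, 6.79, 6.91, 7.72 and 7.82. The lowest rat was a fipronil rat and the 2 highest were vehicle rats, with the rest intermixed.

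Cyp1a2 probe 1 averaged 7.03 ± 0.39 in fipronil rats and 7.16 ± 0.48 in vehicle rats, a difference of -0.13 with a standard error of 0.21 (limma, adjusted p = 0.807). The 95% interval, 0.676 to 1.24-fold, lies far below the fold of Cyp3a23-3a1 and Ugt1a1. Probe 2 averaged 5.17 ± 0.39 in fipronil rats and 5.16 ± 0.32 in vehicle rats, a difference of 0.01 (95% interval 0.779 to 1.31-fold, adjusted p = 0.984). Over the 15 rats, with group means removed, both probes followed each other with r = 0.90. Within slides 1 to 4 the probe 1 differences were 0.02, 0.06, 0.05 and -0.52. Those of probe 2 were -0.03, 0.11, 0.07 and 0.005.

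The 2 neighbouring genes moved together from rat to rat. With the group means removed, Pearson's r between Cyp1a1 and Cyp1a2 probe 1 was 0.873 and Spearman's rho was 0.882 over the 15 rats (permutation test, 100000 resamples, two-sided; adjusted p = 0.0003 and 0.0006 over 10 relations). It was 0.837 among the 8 fipronil rats and 0.916 among the 7 vehicle rats. It was 0.896 without the 2 rats farthest from the median of Cyp1a1 and 0.855 with slide means removed as well. Because the vehicle rats form separate levels of Cyp1a1, r was also taken over the 11 rats with Cyp1a1 above background, a choice made after seeing the data, and was 0.723. In vehicle rats the 3 with Cyp1a1 above background had a Cyp1a2 signal of at least 7.39 and the other 4 at most 6.91.

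Among the 11 rats with Cyp1a1 above background, Cyp1a1 signals spanned 12.1-fold, against 2.96-fold for Cyp1a2 probe 1 and 2.35-fold for probe 2 in the same rats. Among all tested probes, Cyp1a2 probe 1 was the one whose signal was most like that of Cyp1a1. For Cyp1a2 probe 1, Cyp1a1 came directly after the other Cyp1a2 probe. The probe letters were not used here, so whether either probe also binds RNA of the other gene was not tested.

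**Figure D4:**
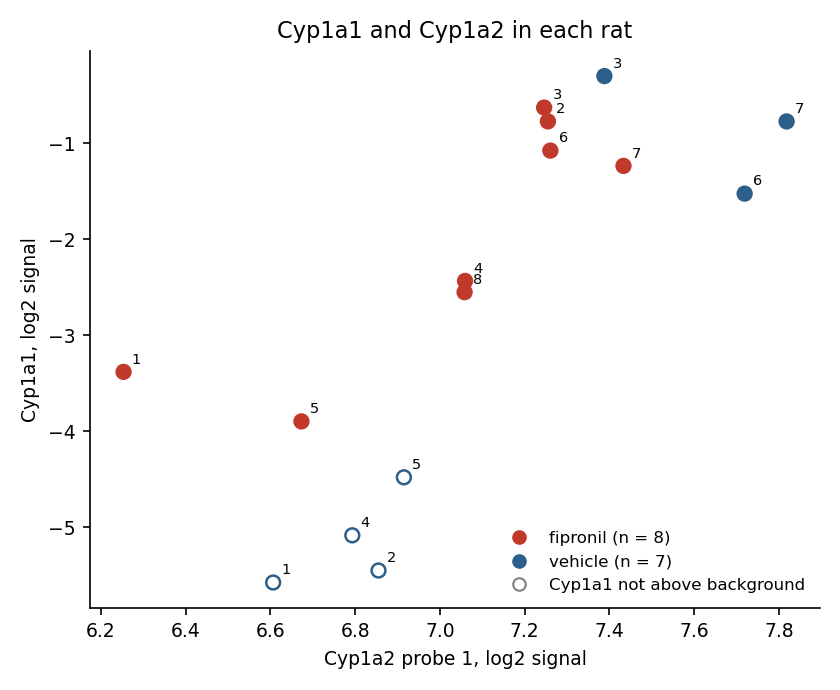
Cyp1a1 log2 signal (vertical axis) against Cyp1a2 probe 1 log2 signal (horizontal axis), 1 point per rat with its replicate number; red points are fipronil rats, blue points vehicle rats, and open points had Cyp1a1 not above background. Both genes rise together in both groups, and the 4 open vehicle points sit at the lower left.

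The next probes by likeness to Cyp1a1 were those of Wdr27 (r = 0.869) and Pacs1 (r = 0.861), over the 15 rats with group means removed. For Cyp1a2 they were Yipf1 (r = 0.859) and Tjp3, which encodes a tight junction protein (r = 0.851). None of these 4 passed the test between groups, with differences from -0.17 for Wdr27 to 0.35 for Pacs1 (limma, adjusted p = 0.630 and 0.0927). These values are a description of the rats of this study.

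Cyp1b1 encodes the P450 of the family that is active mainly outside the liver, in steroid-responsive tissues. Its probes lie on chromosome 6 of rn4, probe 1 at 2546002 to 2546061 and probe 2 at 2548660 to 2548719. Both were above background on 0 of 15 arrays, so no fold is given. Probe 1 read from -6.41 to -5.36 (median -5.97) in fipronil rats and from -6.02 to -4.81 (median -5.75) in vehicle rats. Probe 2 read from -6.60 to -5.25 (median -6.23) in fipronil rats and from -6.31 to -5.45 (median -6.03) in vehicle rats. These signals were at the floor of the scanner software on most arrays, which put a surrogate value in place of the intensity of probe 1 on 7 of 8 fipronil and 6 of 7 vehicle arrays. The groups overlapped, and Cyp1b1 was not detectable at the sensitivity of these arrays in either of them.

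Tiparp encodes a mono-ADP-ribosyltransferase that is induced by AhR and in turn restrains it. The brightest of its 3 probes (chromosome 2 of rn4, 155338483 to 155338542) was above background in all 15 rats. It read 1.05, 1.28, 1.01, 1.36, 1.12, 1.58, 1.28 and 1.29 in fipronil rats 1 to 8, and 1.51, 1.31, 1.28, 1.33, 1.03, 1.5 and 0.93 in vehicle rats 1 to 7. The groups lay on top of each other. The means were 1.25 ± 0.19 in fipronil rats and 1.27 ± 0.22 in vehicle rats, a difference of -0.02 with a standard error of 0.11 (95% interval 0.840 to 1.15-fold, limma, adjusted p = 0.945). Within slides 1 to 4 the differences were -0.25, -0.12, 0.32 and 0.07.

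Tiparp probe 2 (155337017 to 155337076) lay near the detection limit and followed probe 1 only loosely, with r = 0.40 over the 15 rats with group means removed. It averaged -3.79 ± 0.54 in fipronil rats and -4.26 ± 0.72 in vehicle rats, a difference of 0.47 with a standard error of 0.30 (limma, adjusted p = 0.436). Within slides 1 to 4 it was 0.68, -0.46, 0.56 and 0.92. The probe was detected in 7 of 8 fipronil rats and 2 of 7 vehicle rats (Fisher's exact test, p = 0.0406, adjusted 1.0). The difference was -0.00 when signals below each array's detection limit were raised to that limit. Above the mean detection limit of the vehicle arrays lay 5 of 8 fipronil rats and 2 of 7 vehicle rats. Only 1 fipronil rat exceeded the highest detection limit among the vehicle arrays, -3.23 on the array of vehicle rat 7. Probe 3 (155315414 to 155315473) was detected in 1 of 8 fipronil rats and 0 of 7 vehicle rats, with a median of -4.72 in fipronil rats and -4.53 in vehicle rats.

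Aldh3a1, an aldehyde dehydrogenase that dioxin induces in rat liver, gave the smallest p of the members. Its probe lies on chromosome 10 of rn4, 47374804 to 47374862, and was above background in all 15 rats. It read -0.49, -0.51, -0.54, -0.20, -0.09, -0.19, -0.47 and -0.19 in fipronil rats 1 to 8. In vehicle rats 1 to 7 it read -0.25, -0.02, -0.30, 0.04, -0.07, -0.21 and 0.10. Of the 8 fipronil rats, 7 were below the vehicle mean, and the ranges overlapped between -0.30 and -0.09.

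The Aldh3a1 mean was -0.33 ± 0.18 in fipronil rats and -0.10 ± 0.15 in vehicle rats. The difference of -0.23 (standard error 0.10, 0.850-fold, 95% interval 0.740 to 0.978-fold) had an unadjusted p of 0.0255 and did not pass after adjustment (limma, adjusted p = 0.227). Within slides 1 to 4 it was -0.36, -0.24, -0.08 and -0.27. It was negative under all 32 alternatives tried, from -0.29 to -0.10, with adjusted p between 0.160 and 0.849. The signal was also set against the log2 75th percentile of the array, with group means removed. Over the 15 rats r was -0.60 (permutation adjusted p = 0.0728) and rho was -0.68 (permutation adjusted p = 0.0345). Both values come from the 10 relations computed, and r was -0.62 without the 2 rats farthest from the median. It was -0.49 with slide means removed as well, and -0.46 on normexp and quantile-normalised values. The signal has this percentile subtracted, so part of a negative r can come from the subtraction, and this part was not tested. With array brightness as a covariate the difference was -0.10 (limma, adjusted p = 0.849).

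No relation of Tiparp or Aldh3a1 to the Cyp1a genes, or to each other, passed the test. Over the 15 rats with group means removed, Cyp1a1 had r = -0.08 with Tiparp and -0.31 with Aldh3a1, and Cyp1a2 had r = 0.04 with Tiparp and -0.04 with Aldh3a1. Between Tiparp and Aldh3a1 r was -0.06. Spearman's rho of these 5 relations lay between -0.26 and 0.15, and the lowest adjusted permutation p for r was 0.511. The probes most like Tiparp probe 1 were those of Wdr45b, Scaf4 and Supt7l (r = 0.784, 0.781 and 0.778). The probes most like Aldh3a1 were those of Podxl, Lrp1, an endocytic receptor, and Vipr2 (r = 0.888, 0.859 and 0.842).

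The probe of the receptor gene Ahr was dim. It was above background in 0 of 15 rats, with signals from -5.73 to -4.41 in fipronil rats and from -6.08 to -4.97 in vehicle rats. Whether Ahr RNA was scarce or the probe read it poorly was not tested. Arnt, the partner of AhR, was above background in all 15 rats. It averaged -2.58 ± 0.39 in fipronil rats and -2.65 ± 0.29 in vehicle rats (log2 difference 0.07, limma, adjusted p = 0.885). Of 14 genes of the AhR machinery (the receptor, its partners, chaperones and coactivators), 13 had a probe and 11 were tested with 21 probes. Of these probes 0 were higher and 0 lower, and their median difference was -0.01, beside -0.02 for all tested probes. The smallest p belonged to Ep300, a histone acetyltransferase, with a difference of 0.37 for the dimmer of its probes (limma, adjusted p = 0.270). Hif1a, which also pairs with Arnt, had differences of -0.06 and 0.11 with its 2 probes.

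Other genes known to respond to AhR were measured with 15 probes of 12 tested genes, out of 20 genes listed, and 0 probes were higher and 0 lower. The median difference was 0.02, beside -0.02 for all tested probes. Nqo1, the quinone reductase driven by both AhR and NRF2, averaged 0.54 ± 0.77 in fipronil rats and 0.31 ± 0.37 in vehicle rats (log2 difference 0.23, limma, adjusted p = 0.744). Ugt1a6, the glucuronosyltransferase of planar phenols, averaged -0.32 ± 0.26 in fipronil rats and -0.20 ± 0.23 in vehicle rats (log2 difference -0.12, limma, adjusted p = 0.685). The smallest p was that of Cyp2a1, a testosterone hydroxylase, at 5.78 ± 0.32 in fipronil rats and 5.25 ± 0.20 in vehicle rats. It was 1.45-fold higher in fipronil rats and did not pass (limma, adjusted p = 0.0763). The largest log2 difference of the list, 0.76, was that of 1 Gsta2 probe with saturated spots on 5 arrays (limma, adjusted p = 0.0959). The other Gsta2 probe had a difference of -0.24 with saturated spots on 14 arrays. Gsta1 had -0.31 with saturated spots on all 15 arrays.

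Tryptophan breakdown yields kynurenine and other compounds that bind AhR, so its enzymes were read on the same arrays. Of 10 genes, 8 had a probe and 7 were tested with 1 probe each: 1 was higher, 0 were lower, and the median difference was 0.04. Of all tested probes 0.533% were higher and 0.288% lower, with a median difference of -0.02. The probe that passed was that of Kmo, kynurenine 3-monooxygenase, which consumes kynurenine. Its signal ran from 3.24 to 3.71 (median 3.41) in fipronil rats and from 2.85 to 3.17 (median 3.11) in vehicle rats. The groups did not overlap, as in 0.598% of all tested probes. The means were 3.46 ± 0.14 in fipronil rats and 3.07 ± 0.11 in vehicle rats, 1.31-fold higher in fipronil rats (limma, log2 difference 0.39, standard error 0.08, adjusted p = 0.0287). Its difference lay between 0.35 and 0.43 in all 32 alternatives, but the adjusted p ran from 0.00446 to 0.273 and passed in 16 of them. It missed the threshold without any 1 of the 4 slides (0.0899 to 0.273). It also missed it without any 1 of fipronil rats 1, 3, 7 and 8 and vehicle rats 1, 2, 5, 6 and 7 (0.0526 to 0.0688). Tdo2, the enzyme that opens the tryptophan ring in liver, had a difference of -0.23 with saturated spots on 6 arrays and did not pass (limma, adjusted p = 0.253).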

How the data were processed

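Liver RNA of 15 rats was measured on 1-colour Agilent arrays. Spot intensities were deposited by the authors as Feature Extraction output (version 9.5 per the submitters' processing notes), already background-subtracted, with other flags for spots above background, saturated or outlying deposited per the file headers. The deposited log2 value table of the authors (22244 probes) served as an alternative. Here the log2 intensity minus each array's 75th percentile was used, spots of 1 probe were averaged without outlier flags, and each probe was tested on its own with limma 3.58.1 (R 4.3.3), fipronil against vehicle with no covariate. Probes well above background on at least 7 arrays and missing on at most 3 were tested. Detection was compared by Fisher's exact test and correlations by permutation (SciPy 1.17.1). The test was checked on simulated data.

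The members and gene lists were chosen with earlier results of these data known. Named were every member probe, list genes that passed or had the smallest p of their list, Ahr, Arnt, Nqo1, Ugt1a6, the induced genes Cyp3a23-3a1 and Ugt1a1, and the probes most like each member. Tdo2, Hif1a, Gsta1, Gsta2 and the saturated hepatocyte markers were added after their values were seen. The labels count rats as replicates. Alternatives changed the background correction, scaling, filter, floor, weights, slide, brightness, replicate number and the arrays left out. The number of arrays limits the precision.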

Additional observations from a re-analysis of the deposited data

Results flagged for a closer look

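Of 18 groups of member signals, 3 held a rat far from the others of its group, by Dixon's test of the gap over the range; chance gives about 1 such group in 20. Cyp1b1 probe 2 read -5.25 in fipronil rat 8, the highest of the 8 fipronil rats, and -5.45 in vehicle rat 7, the highest of the 7 vehicle rats. Neither signal was above background. The intensity of this probe was a surrogate value on 6 of 8 fipronil and all 7 vehicle arrays. The array of vehicle rat 7 had the lowest 75th percentile, 115 units, which is subtracted from the signal. The part of this subtraction in the flag was not tested. Tiparp probe 2 read -4.95 in fipronil rat 3, the lowest of the 8 fipronil rats and the one in which this probe was not above background.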

How the results depend on the processing

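No member probe passed under any alternative. Differences near 0 changed sign: Cyp1a2 probe 1 to 0.055 with array brightness as a covariate and 0.046 without slide 4; Cyp1a2 probe 2 to -0.0013 with normexp and -0.011 without slide 2; Tiparp probe 1 to 0.0018 with normexp, 0.062 without slide 1 and 0.011 without slide 2; Tiparp probe 2 to -0.00066 with the floor. Leaving out 1 rat gave -0.070 to 0.13 for Cyp1a2 probe 2, -0.079 to 0.018 for Tiparp probe 1 and -0.21 to 0.06 for Tiparp probe 3. Of all tested probes, 191 passed, but 90 without the filter, 42 with brightness, 37 without slide 1, 45 without slide 4 and 102 (without fipronil 8) to 307 (without vehicle 3) with 1 rat left out. The count of other AhR-responsive probes became 1 (Cyp2a1) with array weights and 0 to 1 with 1 rat left out. The count of tryptophan enzymes, 1, became 0 without the filter, with brightness, or without any 1 slide, and was 0 to 1 with 1 rat left out. The r of Cyp1a1 and Cyp1a2 was 0.747 with normexp, 0.75 with group means kept and 0.723 with Cyp1a1 above background; that of Cyp1a2 and Aldh3a1 was -0.45 without the 2 farthest rats. The log2 brightness difference, 0.31, was 0.037 within slide 2 and 0.63 within slide 4. With the replicate block over 7 pairs, 97 probes and 0 tryptophan enzymes passed. Same-numbered rats deviated with r of -0.04 to 0.37 (3 of 7 over 0.1, and 3 of 7 closest to their own number). With 7 pairs these values do not settle whether the numbers pair the rats. The cause of these shifts was not tested. Dim probes are limited by the signal over background.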

Other observations

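The groups were also set against each other at an equal Cyp1a2 signal, which left a difference in Cyp1a1 that did not pass the test. With Cyp1a2 probe 1 as a covariate, a setting chosen after seeing the data, the Cyp1a1 difference was 1.78 on the log2 scale (standard error 0.44, unadjusted p = 0.000933, limma). Among all tested probes Cyp1a2 probe 1 was the one most like Cyp1a1, and the p-values do not allow for this choice. No fold is given, since Cyp1a1 was not above background in 4 of the 7 vehicle rats. The difference did not pass over the 23257 probes of that fit (limma, adjusted p = 0.0748), in which 167 probes passed. With signals below each array's detection limit raised to that limit, it was 0.98 (standard error 0.35, limma, adjusted p = 0.183). On normexp and quantile-normalised values the same fit gave 0.33 (standard error 0.18, limma, adjusted p = 0.432). Without the covariate the difference was 1.32, and 0.61 with the raised signals.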
